A study of Rattus norvegicus with 12 samples.

Results

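Gene expression in the rat induced pluripotent stem (iPS) cell lines A1 and A2 was set against that in the lines DAC8 and REF1, on 8 of the 12 arrays of the series. A1 and A2 were of the FHH strain, were kept in 2i medium and were sampled 5 days after passage. Per the labels' protocols they grew on mouse embryonic fibroblast feeders treated with mitomycin C, and no label records a step that took the feeders away before RNA was extracted. REF1 was a culture of FHH embryonic fibroblasts taken at e14.5, kept in MEF medium and sampled 6 days after passage. DAC8 is labelled an embryonic stem (ES) cell line and its strain is not labelled. By its labels it was kept in 2i medium and sampled 5 days after passage. Each line had 2 arrays. Nothing in the labels tells whether they were separate cultures, so p-values measure only the spread between the arrays of a line, which may be technical. The other 4 arrays held the ES line DAC2 and the FHH fibroblast culture REF2. They enter here only where their levels are set beside those of the 4 lines.

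DAC8 was grouped with REF1 by its measured profile and not by its label. Across the 10465 genes tested, the mean levels of DAC8 and REF1 had a Pearson r of 0.988, against 0.650 for DAC8 and the other ES line, DAC2. These correlations run across genes, which are not independent replicates, and they describe how the grouping was chosen. The label marks DAC8 as positive for Sox2, yet Sox2 stood at 4.73 and 4.85 on its arrays, below the level of 5 used here as the lower limit of measurement, and at 11.52 and 11.44 on the arrays of DAC2. The fibroblast genes Postn, Col3a1 and Tnc stood between 12.71 and 13.64 on the DAC8 arrays. REF2 departs from its label in the other direction, with Sox2 at 11.53 and 11.60 and Postn at 3.40 and 3.51. Because values chose the grouping, the mean of the 4 iPS arrays minus the mean of the 4 arrays of DAC8 and REF1, called the pooled difference below, is a description with no test. The tests were the 4 comparisons of one line with one line (A1 and A2, each against REF1 and against DAC8), which share arrays. Since the levels of DAC8 chose its place here, the differences from DAC8 are descriptions. Its tests enter only the rule for calls, the counts of calls and the flagged differences between DAC8 and REF1. The p-values printed are the larger of those of A1 and A2 against REF1. REF2 was left out for its profile too, so these p-values compare the lines named and no cell types. None is printed for Postn, Col3a1, Tnc, Sox2 and Elavl4, which marked the profiles. A gene was called where limma's adjusted p was under 0.05 and the difference was at least 2-fold, and it is described as higher or lower in the iPS lines where it was called the same way in all 4.

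Fibroblasts are connective tissue cells that secrete collagens and glycoproteins into the extracellular matrix and pull on it through actin stress fibres. SRF, which binds the CArG box of contractile genes, and the coactivator YAP, which works through TEAD factors that bind the letters GGAATG, are known to respond to this tension. Reprogramming to iPS cells replaces this programme with that of the early embryo. In the developing nervous system, progenitors that carry Sox2 give rise to neurons under proneural bHLH factors, which bind E-boxes, and young neurons switch on growth cone proteins and the Elavl RNA-binding proteins.

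Promoter sequences are shown for 4 called genes to place these factors' letters beside the values that follow. Ccn2 and Acta1 were lower in the iPS lines, and Elavl2 and Ina were higher. The sequences are those of RefSeq on the rat assembly GRCr8, from 250 bases before to 50 after the start of the gene, 5′ to 3′ on the gene's strand. The 4 genes were picked after the motifs had been searched, and capitals mark every copy on either strand of the CArG box, of the E-boxes CAGCTG and CACCTG, and of GGAATG, which reads CATTCC on the other strand. Ccn2 lies at chr1:22624565-22624864 on the minus strand, with GGAATG starting at -166, -101 and -92 from the start of the gene. Acta1 lies at chr19:68784145-68784444 on the minus strand, with CAGCTG at -237, a CArG box at -94 and CATTCC at -67. Elavl2 lies at chr5:111202238-111202537 on the minus strand, with the E-box CAGCTG at -33. Ina lies at chr1:255837879-255838178 on the plus strand, with CATTCC at -200 and CAGCTG at -135 from the start. CAGCTG and GGAATG thus each stand in a higher and in a lower gene of the 4.
Ccn2: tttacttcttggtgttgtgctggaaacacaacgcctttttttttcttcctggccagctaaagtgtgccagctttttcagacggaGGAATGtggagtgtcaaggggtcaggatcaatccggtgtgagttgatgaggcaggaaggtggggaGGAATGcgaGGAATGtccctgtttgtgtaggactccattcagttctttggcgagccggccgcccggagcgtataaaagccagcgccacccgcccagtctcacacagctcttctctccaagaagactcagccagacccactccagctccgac
Acta1: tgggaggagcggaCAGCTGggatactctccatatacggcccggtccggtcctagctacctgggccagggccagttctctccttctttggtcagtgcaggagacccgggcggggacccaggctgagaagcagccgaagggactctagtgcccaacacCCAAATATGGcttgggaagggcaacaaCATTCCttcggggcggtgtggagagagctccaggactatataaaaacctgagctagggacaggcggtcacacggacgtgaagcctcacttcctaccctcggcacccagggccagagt
Elavl2: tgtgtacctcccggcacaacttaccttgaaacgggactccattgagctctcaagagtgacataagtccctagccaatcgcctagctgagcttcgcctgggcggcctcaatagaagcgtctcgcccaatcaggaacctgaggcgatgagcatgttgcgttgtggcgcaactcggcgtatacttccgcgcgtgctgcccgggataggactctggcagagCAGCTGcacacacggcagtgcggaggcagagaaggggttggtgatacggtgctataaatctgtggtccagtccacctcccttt
Ina: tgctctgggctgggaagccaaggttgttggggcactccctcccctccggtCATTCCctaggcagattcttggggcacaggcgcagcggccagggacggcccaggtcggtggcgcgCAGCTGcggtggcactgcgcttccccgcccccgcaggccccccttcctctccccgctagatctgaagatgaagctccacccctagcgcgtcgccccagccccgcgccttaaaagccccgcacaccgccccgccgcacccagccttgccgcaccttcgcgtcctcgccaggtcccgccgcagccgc

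Of the 8746 tested genes with a promoter window, 1180 were higher and 1219 lower in the iPS lines. A CArG box was in 2.3% of the windows of lower genes, 1.36% of those of higher genes and 1.35% of all. GGAATG, which was added to the search after the sequences were seen, was in 15.3%, 8.98% and 11% of them. It occurred 3 or more times in 7 windows of lower genes, in none of higher genes and in 9 of all tested genes (0.103%), and Ccn2 is one of the 7. The E-box CAGCTG was in 18.3% of the windows of lower genes, 15.2% of those of higher genes and 15.7% of all, and CACCTG in 14.8%, 19% and 16.5%. No motif contains another. A match is not a binding site, and these shares are descriptions with no test.

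Both directions held many genes. REF1 differed from A1 in 3583 genes (34.2% of those tested) and from A2 in 3584 (34.2%), and DAC8 differed from A1 in 3473 (33.2%) and from A2 in 3488 (33.3%). By the same rule A1 and A2 differed from each other in 23 genes (0.22%), and DAC8 and REF1 in 167 (1.6%). As DAC8 was placed with REF1 for its like profile, their low count describes the grouping and is no separate result. In all 4 comparisons 1428 genes were higher in the iPS lines (13.6%) and 1528 were lower (14.6%), 28.2% of those tested together. No gene was called higher against one of DAC8 and REF1 and lower against the other in all 4 comparisons. The grouping of DAC8 with REF1 by profile makes such a gene unlikely, so its absence is no separate result. The median pooled difference was 1.73 on the log2 scale for the higher genes, -2.20 for the lower genes and 0.13 for all genes tested. At least 4-fold differences in all 4 comparisons were held by 463 higher and 745 lower genes. With levels under 5 set to 5, at least 64-fold differences were held by 8 higher and 30 lower genes.

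**Figure D1:**
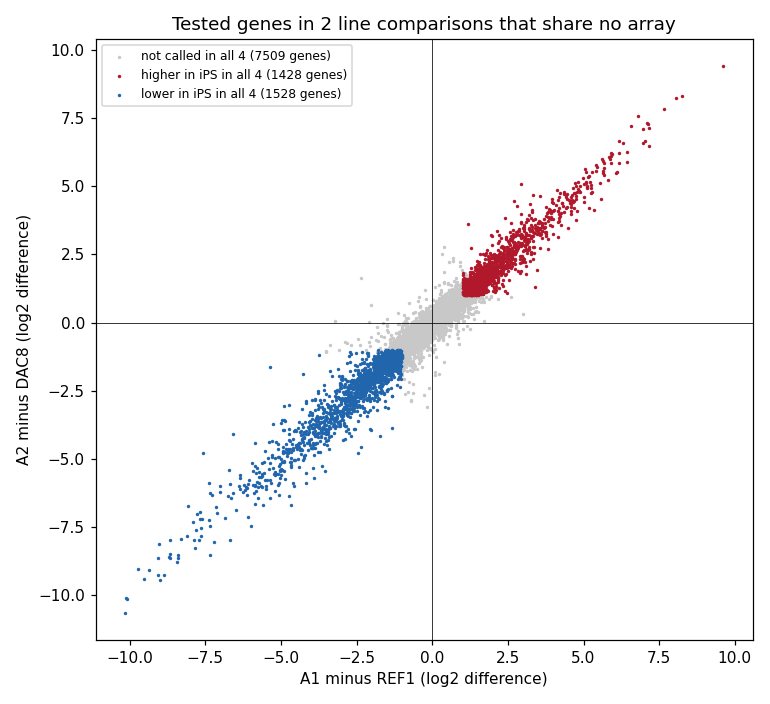
Each point is a tested gene, with the log2 difference of A1 minus REF1 on the horizontal axis and that of A2 minus DAC8 on the vertical axis. The 1428 genes higher in the iPS lines in all 4 comparisons lie at the upper right, the 1528 lower genes at the lower left, and the 7509 others in grey.

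The threshold cuts through a continuous range. The higher genes nearest to it were Mrpl48, with a smallest difference of 1.0009, and Kif3a, with 1.0020, while Sez6l2 at 0.9991 and Odc1 at 0.9996 fell just short. The nearest lower genes were Steep1, with a smallest difference of 1.0002, and Nptxr, with 1.0013, while Rab3gap2 at 0.9996 and Spop at 0.9999 fell just short. All levels here are log2 signals of 1 probe set a gene, so levels of different genes cannot be set against each other. Probe sets of 18 olfactory receptor genes, which such cells should not express, had a 95th percentile of 4.66 to 5.42 on the arrays of the 4 lines, so a level under 5 was not shown to be above background. On the DAC8 arrays it was 5.35 and 5.42 and on the others at most 5.01, so a DAC8 level between 5 and 5.42 was not shown to be above background either. Where one side lay there or under 5, a fold is given as "at least", the smallest of the 4 comparisons with levels under 5 set to 5. In 944 of the higher genes and 937 of the lower genes all 4 lines had means of 5 or more. Calls used the levels as deposited, with none set to 5. The counts of calls, also those of the lists, can thus hold differences that lie under 5.

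A marker of RNA integrity moved with the grouping. For beta-actin, the 3′ probe set exceeded the 5′ one by 0.84 to 0.87 on the iPS arrays, 0.45 to 0.52 on the DAC8 arrays and 0.42 to 0.48 on the REF1 arrays. Its part in the results was not tested. By the labels, the medium and the day of sampling also differed against REF1, though not against DAC8, and cannot be told apart from the cell type. Whether the labelled medium and day hold for DAC8, whose profile departs from its label, was not tested. In RNA of whole cultures, fewer cells of a type and less RNA per cell cannot be told apart either.

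Most genes of the extracellular matrix were lower in the iPS lines. Of 22 collagens and collagen-processing enzymes tested, 20 were lower in the iPS lines and none was higher, with a median pooled difference of -4.58. Over all genes tested, 13.6% were higher and 14.6% lower, and the counts of every list below stand beside these shares. A list with counts near these shares carries no statement about its members as a group. The probe set of Postn, which encodes the matrix protein periostin, stood at 3.54 and 3.68 in A1, 3.41 and 3.55 in A2, 13.64 and 13.58 in DAC8 and 13.71 and 13.76 in REF1. All 4 iPS arrays lay under 5 and all 4 others above 13. The largest of the 4 differences was -10.26, with an SE of 0.12, and against the level of 5 every difference came to at least 391-fold. Tnc, which encodes tenascin-C, a glycoprotein of healing and embryonic tissue, stood at 2.45 and 2.55 in A1, 2.71 and 2.45 in A2, 12.73 and 12.71 in DAC8 and 12.62 and 12.57 in REF1. Col3a1, a fibrillar collagen of soft tissue, stood at 3.57 and 3.47 in A1, 3.76 and 3.98 in A2, 12.94 and 12.95 in DAC8 and 13.24 and 13.24 in REF1. Neither gene's groups overlapped, and the differences were at least 194-fold for Tnc and at least 246-fold for Col3a1. Since Postn, Tnc and Col3a1 marked the profiles, the separation of their arrays describes the grouping and adds no evidence to it. These genes, Sox2 and Elavl4 were not taken out of the counts of lists that hold them. Their part in those counts follows from the grouping.

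Of the collagen I chains, Col1a2 was at least 331-fold and Col1a1 at least 160-fold lower in the iPS lines. Basement membrane collagen was lower too, with Col4a2 at 5.54 in A1, 5.44 in A2, 11.13 in DAC8 and 11.27 in REF1 (means of 2 arrays), a fold of 48.2 or more. Enzymes that finish collagen fibres were in the same direction: Pcolce, which enhances the trimming of procollagen, was lower by 69.8-fold or more, and the crosslinking oxidase Lox by 22.9-fold or more. The collagens without a call in all 4 were Col16a1, with means from 6.34 in A1 to 7.38 in REF1, and Col5a3, at 5.22 and 5.07 in A1 and A2, 6.15 in DAC8 and 8.73 in REF1. The last of these sets DAC8 apart from REF1, as did Col6a3, at 4.86 in DAC8 and 8.80 in REF1 with DAC8 and both iPS lines under 5. Col6a3 was still called lower in the iPS lines in all 4 comparisons, though its differences from DAC8 lie wholly under 5. Only 1 of its 2 probe sets was lower in the iPS lines by the pooled difference.

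Of 25 matrix glycoproteins and proteoglycans on the array, 23 were tested, 21 were lower and 1 was higher, with a median pooled difference of -3.97. Fbln5, which organises elastic fibres, was at least 136-fold lower. Sparc, a secreted collagen-binding protein, stood at 7.80 in A1, 7.69 in A2, 13.23 in DAC8 and 13.36 in REF1 and was lower by 43.1-fold or more. Fn1, which encodes fibronectin, stood at 8.91 and 8.75 in A1, 8.79 and 8.67 in A2, 13.21 and 13.22 in DAC8 and 13.28 and 13.25 in REF1, so it was measured in all 4 lines and lower in the iPS lines by 20.9-fold or more (adjusted p against REF1 2.7e-11). The one member in the other direction was Mfap5, a microfibril protein, at 9.95 and 9.93 in A1, 10.05 and 9.98 in A2, 7.09 and 7.24 in DAC8 and 7.05 and 6.95 in REF1. Its iPS arrays all lay above the others, by 6.85-fold or more in line means.

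Matrix proteases and their inhibitors gave 13 lower and 1 higher of 15 tested, out of 18 on the array, with a median pooled difference of -3.25. The serine protease gene Htra1 was lower by 45.1-fold or more and the metalloprotease inhibitor Timp2 by 20.8-fold or more. Adamts1, a protease of proteoglycans, was at least 25.7-fold lower. Mmp9, a gelatinase, was the higher one, at 5.74 in A1 and 5.30 in A2 with DAC8 and REF1 under 5, a fold of at least 1.23. Markers of cartilage and bone moved with the matrix: of 11 on the array 4 were tested, of which Spp1, Acan and Col2a1 were lower and Alpl was higher in the iPS lines. Spp1, which encodes osteopontin, was at least 133-fold lower, and 3 members stood at 5 or more in each of DAC8 and REF1. Their part in the matrix result was not tested.

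**Figure D2:**
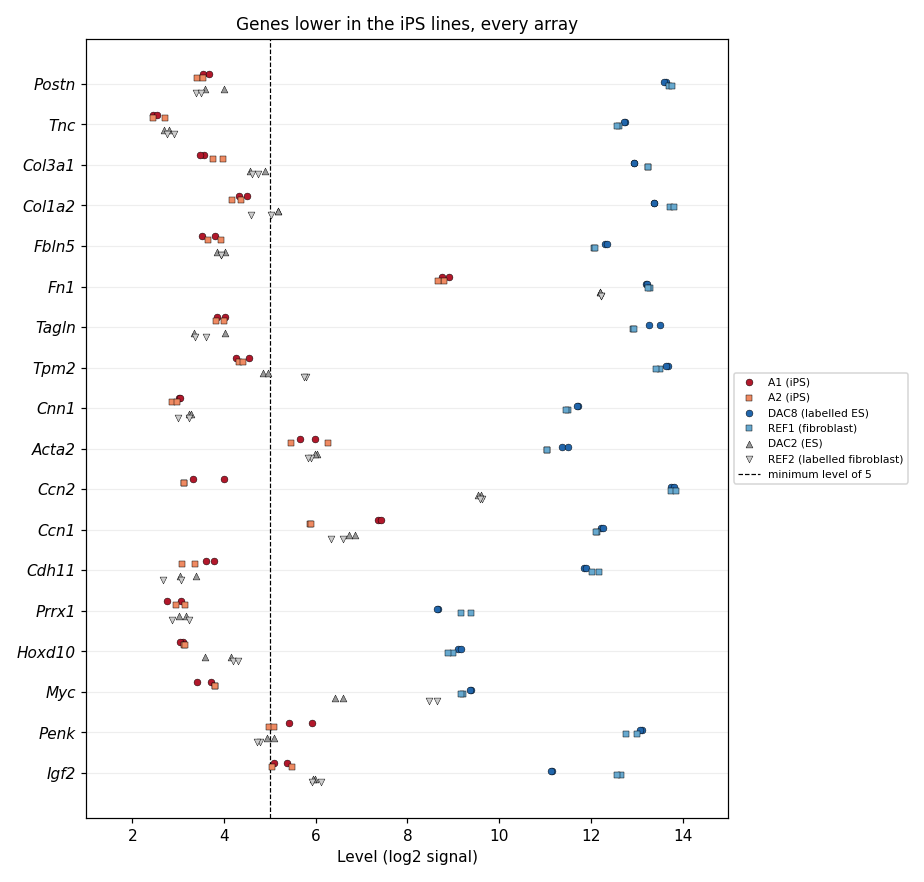
Log2 signal on the horizontal axis for 18 genes lower in the iPS lines, 1 row a gene, with each array as a point. Red and orange points are the iPS lines A1 and A2, blue points DAC8 and REF1, grey triangles DAC2 and REF2, and the dashed line marks the level of 5. In every row the 4 iPS arrays lie left of the 4 arrays of DAC8 and REF1, as for Postn at 3.41 to 3.68 against 13.58 to 13.76. Postn, Tnc and Col3a1 marked the profiles, so their separation describes the grouping.

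Contractile genes were lower in the iPS lines together with the matrix. Of 18 contractile and actin-binding genes tested, 17 were lower and none was higher, with a median pooled difference of -3.82. Tagln, an actin-bundling protein of smooth muscle and stress fibres, stood at 4.02 and 3.86 in A1, 3.84 and 3.99 in A2, 13.51 and 13.26 in DAC8 and 12.92 and 12.93 in REF1. The groups did not overlap and the fold was at least 244 (adjusted p against REF1 2.06e-10). The tropomyosin gene Tpm2 was at least 354-fold lower, and Cnn1, which encodes calponin, at least 88.9-fold. Acta2, the smooth muscle actin of activated fibroblasts, was measured in all 4 lines, at 5.99 and 5.65 in A1, 6.26 and 5.47 in A2, 11.38 and 11.49 in DAC8 and 11.05 and 11.05 in REF1, and was lower by 36.3-fold or more (adjusted p against REF1 1.15e-08). The pooled difference of Tpm2 went from -9.18 to -5.48 with the mean of both probe sets. Pdlim7, an adaptor of actin filaments, was the member without a call, with means of 9.17 in A1, 9.07 in A2, 8.36 in DAC8 and 8.10 in REF1.

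Markers of striated muscle moved with this group in part. Of 12 skeletal and cardiac muscle genes on the array, 8 were under 5 in all 4 lines, and of 4 tested 3 were lower in the iPS lines and none was higher. Acta1, the skeletal actin whose promoter is shown above, stood at 4.93 and 4.77 in A1, 4.97 and 4.84 in A2, 9.41 and 9.59 in DAC8 and 8.62 and 8.84 in REF1, a fold of at least 13.3 (adjusted p against REF1 5.15e-09). Tnnc1, a troponin, was at least 50.9-fold lower, with DAC8 above REF1, and Myl4, a myosin light chain, at least 6.50-fold. Of the 12 muscle genes, 4 stood at 5 or more in each of DAC8 and REF1, 1 in A1 and 2 in A2. As only genes that reached 5 in some line were tested, this follows in part from the filter. Their part in the result was not tested.

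Genes that YAP and TGF-beta are known to raise gave 14 lower and none higher of 17 tested, with a median pooled difference of -3.23. Ccn2, the connective tissue growth factor gene whose promoter is shown above, stood at 3.33 and 3.998 in A1, 3.12 and 3.14 in A2, 13.76 and 13.81 in DAC8 and 13.76 and 13.85 in REF1. All iPS arrays lay under 5 and all others at 13.76 or above, a fold of at least 441 (adjusted p against REF1 4.77e-11). DAC2 and REF2 lay between, at 9.58 and 9.61 in line means. Its relative Ccn1 stood at 7.37 and 7.42 in A1, 5.87 and 5.89 in A2, 12.22 and 12.27 in DAC8 and 12.13 and 12.11 in REF1, which set A1 above A2 while both stayed 26.5-fold or more below the other lines. Ltbp1 and Ltbp2, which hold latent TGF-beta in the matrix, were lower by at least 69.5-fold and by 57.6-fold or more. The members without a call in all 4 were Skil, at 10.56 to 10.61 in A1 and DAC8, Tgfbi and Eng.

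Transcription factors of the mesenchyme differed less uniformly. Of 21 on the array, 17 were tested, 10 were lower and none was higher, with a median pooled difference of -1.75. Prrx1, a homeobox factor of limb mesenchyme and fibroblasts, stood at 3.05 and 2.77 in A1, 3.15 and 2.95 in A2, 8.66 and 8.65 in DAC8 and 9.39 and 9.16 in REF1. The iPS arrays were all under 5 and the fold was at least 12.6 (adjusted p against REF1 2.7e-10). Runx1 was at least 24.2-fold and Twist1, a bHLH factor of the mesoderm, 5.55-fold or more lower. Zeb1 and Zeb2 encode zinc finger factors that repress epithelial genes. The Zeb1 probe set stood at 8.90 and 9.10 on the A1 arrays, 9.13 and 9.35 on those of A2, 8.80 and 8.85 for DAC8 and 8.78 and 8.78 for REF1. Zeb2 had line means of 7.89 in A1, 7.92 in A2, 8.28 in DAC8 and 8.10 in REF1. In none of the 4 comparisons did either factor differ by 2-fold.

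Hox genes, which record position along the body axis, were lower in the iPS lines in 14 of 16 tested, out of 18 on the array, with none higher and a median pooled difference of -3.43. DAC8 and REF1 had 16 of the 18 at a mean of 5 or more, and A1 and A2 had 1 each. Hoxd10 stood at 3.10 and 3.04 in A1, 3.13 and 3.14 in A2, 9.10 and 9.18 in DAC8 and 8.99 and 8.89 in REF1, with no overlap and a fold of at least 15.3 (adjusted p against REF1 4.93e-10). Hoxa5 was at least 16.3-fold and Hoxb2 at least 9.44-fold lower. Hoxa7, at 5.84 in A1, 5.22 in A2, 6.75 in DAC8 and 7.62 in REF1, and Hoxc4 had no call in all 4.

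Surface proteins and growth factor receptors of mesenchymal cells gave 14 lower and none higher of 19 tested, out of 21 on the array, with a median pooled difference of -2.95. Cdh11, the cadherin by which fibroblasts adhere to each other, stood at 3.61 and 3.77 in A1, 3.08 and 3.37 in A2, 11.85 and 11.89 in DAC8 and 12.03 and 12.17 in REF1, a fold of at least 117 (adjusted p against REF1 9.31e-11). Cav1, which coats membrane caveolae, was at least 117-fold lower and the calcium-binding protein gene S100a4 113-fold or more. Outside the lists, the largest differences with all 4 line means at 5 or more included Penk, the precursor of enkephalin peptides, at 5.91 and 5.41 in A1, 4.98 and 5.10 in A2, 13.11 and 13.06 in DAC8 and 12.999 and 12.76 in REF1. Its line means were lower by 149-fold or more (adjusted p against REF1 1.44e-10). The BMP antagonist Grem1, at least 157-fold lower, and Il1rl1, the receptor of interleukin-33, at least 146-fold lower, were among the largest differences with the iPS side under 5. Averaged over all probe sets, the pooled difference went from -8.53 to -4.50 for Cdh11 and from -9.48 to -6.13 for Il1rl1.

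Several genes often used as mesenchymal markers were not called lower in all 4 comparisons. The intermediate filament gene Vim stood at 12.56 and 12.47 in A1, 12.48 and 12.56 in A2, 13.40 and 13.43 in DAC8 and 13.53 and 13.58 in REF1. All 4 iPS arrays lay below the other 4. It was called against REF1, by -1.04 ± 0.07 (SE) for A1, and missed the 2-fold limit against DAC8, by -0.90 ± 0.07 (SE). Pdgfra, the PDGF receptor of mesenchyme, and Cd44, the hyaluronan receptor, stayed within 2-fold in all 4 comparisons, with Pdgfra at 9.50 in A1, 9.36 in A2, 9.15 in DAC8 and 9.34 in REF1. In 6319 of the tested genes all 4 differences were under 2-fold. Of these, 13 stood at 8 or more in all 4 lines and under 5 in both DAC2 and REF2: Ak3, Armcx2, Ccnd2, Cd44, Dclk1, Eno2, Mex3b, Nbea, Nfia, Rgs4, Tmem98, Trps1 and Tspan12. Ccnd2, a D-type cyclin of the G1 phase, was one of the most even of them, at 12.02 and 11.94 in A1, 11.92 and 11.95 in A2, 12.20 and 12.27 in DAC8 and 11.98 and 11.90 in REF1, while DAC2 and REF2 had means of 3.91 and 4.29. The iPS arrays lay within the range of REF1 and DAC8.

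**Figure D3:**
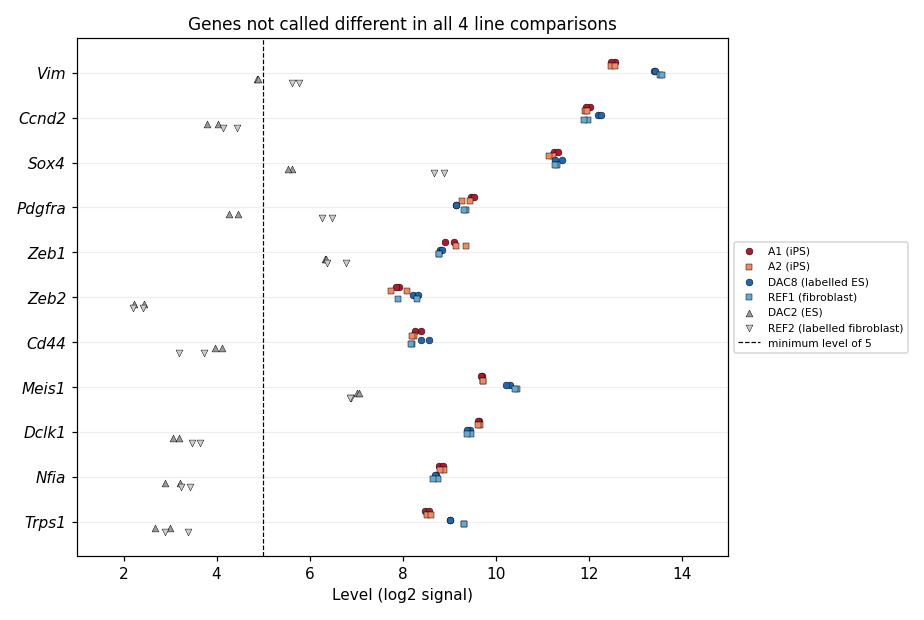
Log2 signal on the horizontal axis for 11 genes not called in all 4 comparisons, drawn as in the plot of lower genes. In most rows the red, orange and blue points lie close together, as for Ccnd2 at 11.90 to 12.27 in the 4 lines. In the row of Vim the iPS points lie left of the blue ones. For Ccnd2, Cd44, Dclk1, Nfia and Trps1 the grey triangles lie to the left because these genes were picked for means under 5 in DAC2 and REF2.

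Several lists of nervous system genes had more higher than lower members in the iPS lines. Among proneural and neuronal transcription factors, 19 were on the array, 13 were tested, 11 were higher and 1 was lower, with a median pooled difference of 4.47. Of the 19, 13 stood at 5 or more in A1 and in A2, and 2 did so in each of DAC8 and REF1. A gene was tested only where a mean of the 4 lines reached 5. A tested member under 5 in DAC8 and REF1 thus had to reach 5 in an iPS line. Tal1, a bHLH factor of blood progenitors and of inhibitory neurons in the midbrain and hindbrain, stood at 12.01 and 11.95 in A1, 12.23 and 12.26 in A2, 4.47 and 4.32 in DAC8 and 4.25 and 4.38 in REF1. The groups did not overlap, and the fold of at least 126 was the largest bound among higher genes with a line mean under 5 (adjusted p against REF1 3.06e-11). Gata2, which acts with Tal1 in both settings, stood at 9.65 and 9.63 in A1, 9.91 and 9.75 in A2, 4.33 and 4.26 in DAC8 and 3.52 and 3.53 in REF1. This was a fold of at least 24.9 on 1 of its 2 probe sets, the other having the opposite sign but lying close to no difference. Neurog1, a proneural factor of sensory neurons, stood at 9.69 and 9.72 in A1, 9.78 and 9.66 in A2, 4.14 and 3.98 in DAC8 and 4.18 and 3.90 in REF1, at least 26.1-fold higher. With the mean of all probe sets the pooled difference went from 7.76 to 4.18 for Tal1 and from 5.83 to 2.87 for Gata2.

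Onecut1, a homeobox factor of postmitotic neurons, was at least 13.5-fold and Myt1, a zinc finger factor of neurogenesis, at least 9.23-fold higher. Neurod1 stood at 6.75 in A1 and 6.76 in A2 against 2.35 in DAC8 and 2.21 in REF1. The lower member was Ebf1, which also works in fat and B cells, at 6.54 in A1, 7.14 in A2, 8.88 in DAC8 and 8.98 in REF1. Since Tal1 and Gata2 are also blood factors, the blood list is given beside them. Of 13 macrophage and blood genes on the array, 6 were tested, none was higher and 4 were lower in the iPS lines, and 2 stood at 5 or more in A1 and 1 in A2. Of the 13 endothelial genes on the array, 6 were tested and 3 were higher, namely Tek, Sox17 and Cldn5.

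Tek, the angiopoietin receptor of endothelium and blood stem cells, stood at 9.10 and 9.02 in A1, 8.95 and 8.82 in A2, 4.63 and 4.88 in DAC8 and 4.01 and 3.42 in REF1, at least 14.8-fold higher. Sox17 stood at 6.15 in A1 and 6.60 in A2 and under 5 in the others. Cldn5, a tight junction protein of vessels, stood at 4.93 and 5.01 in the iPS lines, near the limit of 5, and no fold is given. The endothelial members without a call were Flt1, Esam and Sox18. The other 7 endothelial genes were under 5 in all 4 lines, and of the whole list 3 stood at 5 or more in A1, 5 in A2 and 2 in each of DAC8 and REF1.

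Of 19 neural progenitor genes on the array, 16 were tested, 10 were higher and 1 was lower in the iPS lines, with a median pooled difference of 2.29. Sox2, a factor of both pluripotent and neural progenitor cells, stood at 9.46 and 9.40 in A1, 9.36 and 9.25 in A2, 4.73 and 4.85 in DAC8 and 3.68 and 4.05 in REF1. As Sox2 marked the profiles, the separation of its arrays describes the grouping, and so does its place in the count of higher genes. All iPS arrays were above 9 and all others under 5, a fold of at least 19.8, and 3 of its 4 probe sets had this direction. With the mean of all 4 the pooled difference of Sox2 went from 5.04 to 3.05. DAC2 and REF2 had means of 11.48 and 11.57. Pax6, a homeobox factor of forebrain, hindbrain and spinal cord progenitors, stood at 7.25 and 7.41 in A1, 7.67 and 7.85 in A2, 2.24 and 2.49 in DAC8 and 2.19 and 2.12 in REF1, at least 5.04-fold higher, and at 2.29 and 2.30 in DAC2 and REF2.

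Members of the Notch pathway, which holds progenitors back from becoming neurons, differed in both directions. The receptor gene Notch1 stood at 10.26 and 10.43 in A1, 10.41 and 10.34 in A2, 7.38 and 7.52 in DAC8 and 7.87 and 7.78 in REF1, higher by 5.75-fold or more. The ligand genes Dll1 and Dll3 were higher by at least 8.44-fold and at least 7.30-fold, and Mfng, a glycosyltransferase that tunes the receptor, by 24.5-fold or more. Of the target genes, Hes5 was at least 8.72-fold higher on 1 of its 2 probe sets, and Hes1 was the lower member, at 7.36 in A1, 6.79 in A2, 9.29 in DAC8 and 9.27 in REF1. The pooled difference of Hes5 went from 4.01 to 1.87 with the mean of both. Sox4, a factor of progenitors and young neurons, was even, at 11.30 in A1, 11.19 in A2, 11.35 in DAC8 and 11.29 in REF1.

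Genes that pattern regions of the brain were mostly undetected: of 20 on the array 12 were under 5 in all 4 lines, and of 8 tested 5 were higher and 1 lower. En2, a homeobox factor of the midbrain and hindbrain border, stood at 11.004 and 10.83 in A1, 10.81 and 10.82 in A2, 3.65 and 3.69 in DAC8 and 3.93 and 3.58 in REF1, at least 56.2-fold higher (adjusted p against REF1 1.77e-10). Cnpy1, a modulator of FGF signals at the same border, known from fish, stood at 11.52 and 11.53 in A1, 11.47 and 11.43 in A2, 3.06 and 3.36 in DAC8 and 3.52 and 3.43 in REF1, at least 87.5-fold higher. Neither gene's groups overlapped, and DAC2 and REF2 had Cnpy1 at 10.68 and 11.06 and En2 at 5.06 and 6.39. The other higher members were Irx1, on 1 of its 2 probe sets, Irx3 and Nkx6-1, which mark domains of the neural tube, and the lower one was Spry1, an inhibitor of FGF signalling. The pooled difference of Irx1 went from 4.11 to 1.97 with the mean of both.

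The neuronal cytoskeleton had 19 higher and 1 lower of 24 genes tested, with a median pooled difference of 3.91. Rtn1, a reticulon of neuronal membranes, stood at 12.40 and 12.37 in A1, 12.32 and 12.43 in A2, 4.91 and 5.19 in DAC8 and 5.38 and 5.20 in REF1. Its DAC8 arrays were not above the level of 5.42, so the fold is a bound, at least 136 (adjusted p against REF1 4.77e-11). Stmn3, which destabilises microtubules in growing axons, stood at 11.54 and 11.42 in A1, 11.33 and 11.32 in A2, 4.99 and 5.12 in DAC8 and 5.18 and 4.90 in REF1, at least 77.3-fold higher. Gap43, a growth cone protein, and Tubb3, the neuronal beta-tubulin, were measured in DAC8 and REF1 as well, with Gap43 at 12.33 and 12.37 in A1, 12.47 and 12.40 in A2, 8.24 and 8.21 in DAC8 and 7.82 and 7.50 in REF1. Their folds were 17.4 or more for Gap43 and 15.1 or more for Tubb3. Ina, the neurofilament-like alpha-internexin whose promoter is shown above, was higher by 47.4-fold or more. The adhesion molecule gene Ncam1 was the lower member, at 5.96 in A1, 5.80 in A2, 7.45 in DAC8 and 7.32 in REF1. Averaged over its 3 probe sets, Ncam1 went from a pooled difference of -1.51 to one of -0.65 and lost its call. Dpysl3, Mapk8ip1, Kif5c and L1cam had no call in all 4 comparisons.

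Of 13 neuronal RNA-binding genes on the array, 9 were tested, 7 were higher and none was lower, with a median pooled difference of 2.63. Elavl4, which encodes HuD, a stabiliser of messenger RNAs in neurons, stood at 10.69 and 10.71 in A1, 10.62 and 10.66 in A2, 4.01 and 4.08 in DAC8 and 3.59 and 3.92 in REF1. As Elavl4 marked the profiles too, the separation of its arrays describes the grouping, and so does its place in the count of higher genes. The groups were 6 log2 units apart or more in every comparison, a fold of at least 49.9, and DAC2 and REF2 were at 3.59 and 3.33. Its relative Elavl2 stood at 11.44 and 11.48 in A1, 11.51 and 11.53 in A2, 4.91 and 4.82 in DAC8 and 4.56 and 4.31 in REF1, at least 87.9-fold higher, and at 8.28 and 8.07 in DAC2 and REF2. The splicing regulator Ptbp2 of neurons was at least 5.03-fold higher, while Ptbp1, its counterpart in most other cells, stood at 10.76 in A1, 10.82 in A2, 10.91 in DAC8 and 10.68 in REF1 and had no call.

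Synapse, channel and transmitter genes gave 11 higher and none lower of 18 tested, out of 24 on the array, with a median pooled difference of 2.39. Gad1, the enzyme that makes the inhibitory transmitter GABA, stood at 8.21 and 8.29 in A1, 8.26 and 8.37 in A2, 2.18 and 2.01 in DAC8 and 2.06 and 2.12 in REF1, at least 9.53-fold higher (adjusted p against REF1 1.77e-11). Its pooled difference went from 6.19 to 3.79 with the mean of both probe sets. Slc32a1, which loads GABA into vesicles, was at least 2.33-fold and Snap25, of the vesicle fusion machinery, at least 5.72-fold higher. The vesicle proteins Syp, Syn1 and Rab3a, with means of 6.51, 5.56 and 6.79 in A1 and 5.75, 4.92 and 5.70 in REF1, did not reach the call in all 4. Glial genes were mostly undetected: 8 of 13 on the array were under 5 in all 4 lines, and of 5 tested 1 was higher (Slc1a3, a glutamate transporter of radial glia) and 1 lower (Sox10, a factor of oligodendrocytes and neural crest). Averaged over its 3 probe sets, Slc1a3 went from a pooled difference of 2.06 to one of 0.73 and lost its call.

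Neural crest genes, which fibroblasts of the embryo may also carry, gave 1 higher and 3 lower of 6 tested. The higher one was Tfap2b, at 9.89 and 9.55 in A1, 9.77 and 9.87 in A2, 5.30 and 5.15 in DAC8 and 5.17 and 5.43 in REF1. Its iPS arrays did not overlap the others, and the fold was at least 21.4.

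**Figure D4:**
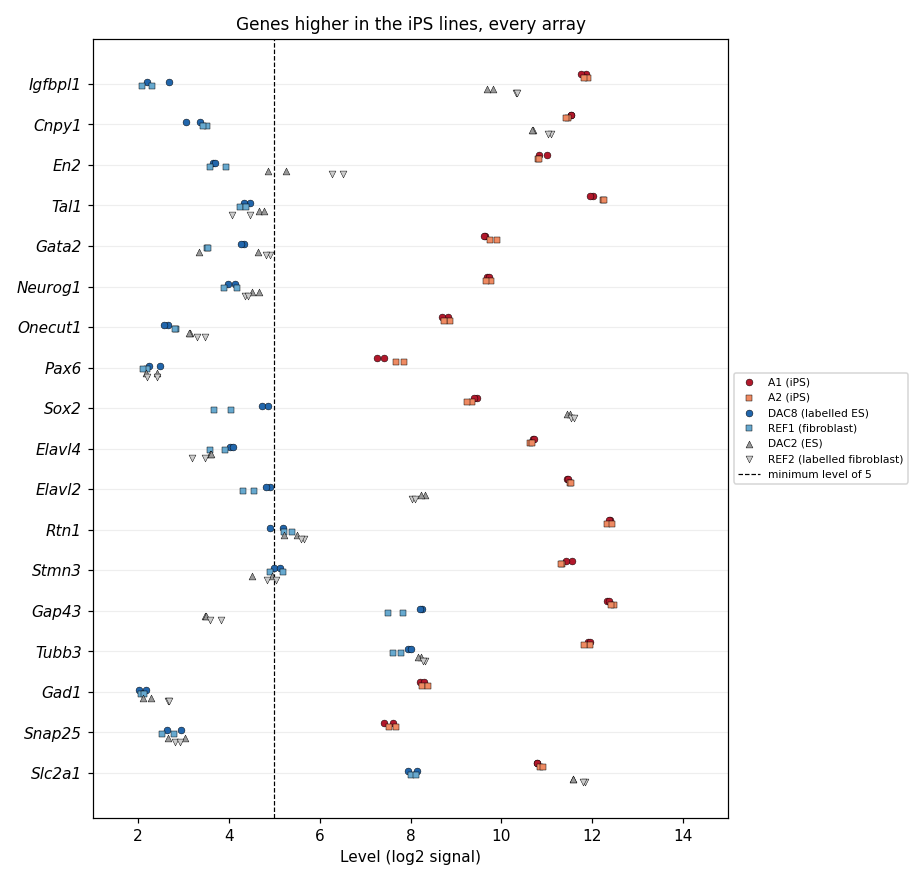
Log2 signal on the horizontal axis for 18 genes higher in the iPS lines, drawn as in the plot of lower genes. In every row the 4 iPS arrays lie right of the 4 arrays of DAC8 and REF1, as for Elavl4 at 10.62 to 10.71 against 3.59 to 4.08. Elavl4 and Sox2 marked the profiles, so their separation describes the grouping.

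Igfbpl1, a secreted protein related to IGF-binding proteins, had one of the largest bounds, at 11.87 and 11.74 in A1, 11.90 and 11.82 in A2, 2.19 and 2.69 in DAC8 and 2.30 and 2.09 in REF1. It was at least 112-fold higher (adjusted p against REF1 3e-11) and stood at 9.74 and 10.33 in DAC2 and REF2. Il18, a cytokine precursor, was at least 108-fold higher. Mgst1, a membrane-bound glutathione transferase, stood at 12.19 and 12.18 in A1, 12.01 and 11.98 in A2, 5.56 and 5.49 in DAC8 and 5.10 and 4.92 in REF1, higher by 88.7-fold or more. With levels under 5 set to 5, 44 higher and 138 lower genes differed at least 16-fold. In DAC2 and REF2 both means were 5 or more for 26 of the 44 and 59 of the 138, and both under 5 for 15 and 64.

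Pluripotency genes were called in both directions. Of 24 in the list only 13 were on the array. Of these 10 were tested, 3 were higher and 2 were lower in the iPS lines, with a median pooled difference of 0.27. Among all genes tested, 13.6% were higher and 14.6% lower, and with 10 tested these counts carry no statement about the list as a group. The 3 higher include Sox2, which marked the profiles. Counted by a mean of 5 or more, A1 had 7 of the 13, A2 had 8, DAC8 had 5, REF1 had 6, and DAC2 and REF2 had 12 each. Beside Sox2, the higher ones were Sall4, a zinc finger factor of ES cells, at 8.21 and 8.22 in A1, 8.19 and 8.32 in A2, 3.08 and 3.51 in DAC8 and 3.32 and 3.78 in REF1, and Lin28a, which blocks let-7 maturation, at 5.34 and 5.85 in A1 and A2 with the others under 5. Sall4 was at least 9.30-fold higher. Klf2, a factor of naive pluripotency that fibroblasts also express, was a lower member, at 4.30 and 4.14 in A1, 3.81 and 3.47 in A2, 10.32 and 10.40 in DAC8 and 9.83 and 9.78 in REF1. Its groups did not overlap, the fold was at least 28.0 (adjusted p against REF1 7.63e-11), and DAC2 and REF2 stood at 12.13 and 12.31. Klf5 was lower by at least 3.31-fold, and Klf4, at 6.85 in A1, 6.15 in A2, 8.72 in DAC8 and 7.65 in REF1, had no call in all 4. With the mean of all probe sets the pooled difference went from -6.15 to -2.28 for Klf2 and from -2.15 to -1.21 for Klf5.

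Epithelial genes, which iPS colonies commonly gain, gave none higher and 4 lower of 11 tested, out of 21 on the array. The lower ones were Dsg2, Krt7, Krt19 and Spint2. Members at 5 or more numbered 7 in A1, 4 in A2, 7 in DAC8 and 8 in REF1, against 19 in each of DAC2 and REF2. By these 2 lists, the arrays labelled iPS had fewer members at 5 or more than DAC2 and REF2, and numbers close to those of DAC8 and REF1. Over all probe sets, 53.6% to 54.6% stood at 5 or more on each array. The 95th percentile of the olfactory receptor probe sets was 5.35 to 5.88 on the arrays of DAC8, DAC2 and REF2. Members of these lines between 5 and that level were not shown to be above background.

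Cell cycle and DNA replication genes gave 15 higher and 1 lower of 29 tested, with a median pooled difference of 1.18. Top2a, the topoisomerase of dividing cells, stood at 10.50 and 10.42 in A1, 10.45 and 10.36 in A2, 8.73 and 8.68 in DAC8 and 8.58 and 8.54 in REF1. All iPS arrays were above the others, by 3.25-fold or more in line means (adjusted p against REF1 1.66e-09). Chek1, the replication checkpoint kinase, was higher by 4.56-fold or more, and the lower member was Ccnd3, a D-type cyclin, by 3.005-fold or more. All 29 tested members stood at 5 or more in each of the 4 lines. Of 13 CDK inhibitors and p53 target genes, 3 were higher (Cdkn1c, Cdkn2a and Sesn1) and 3 lower (Cdkn1a, Mdm2 and Phlda3), beside 13.6% and 14.6% of all genes tested. Cdkn1a, which encodes p21, stood at 9.31 in A1, 9.16 in A2, 11.62 in DAC8 and 11.16 in REF1.

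A 2i medium usually holds inhibitors of MEK and GSK3 and keeps genes downstream of ERK low. The labels give it for DAC8 as for the iPS lines, but the profile of DAC8 departs from its label. The part of the medium in the levels that follow was not tested. Of 16 such genes tested, 11 were lower in the iPS lines and none was higher, with a median pooled difference of -1.72. Myc stood at 3.42 and 3.72 in A1, 3.80 and 3.81 in A2, 9.38 and 9.36 in DAC8 and 9.22 and 9.16 in REF1, a fold of at least 18.2 (adjusted p against REF1 9.59e-11). Its iPS arrays were all under 5, and DAC8 lay at or above REF1. Dusp6, a phosphatase that ERK induces, was at least 13.1-fold lower, and Etv5, an ETS factor, at least 3.27-fold. The pooled difference of Etv5 went from -3.95 to -2.13 with the mean of both probe sets. Fos, Egr1, Egr2, Spry2 and Dusp4 had no call in all 4, and Fos stood at 10.71 in A1, 8.81 in A2, 8.28 in DAC8 and 9.36 in REF1.

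Glucose uptake and glycolysis genes gave 5 higher and none lower of 19 tested, with a median pooled difference of 0.97. The glucose transporter gene Slc2a1 stood at 10.78 and 10.79 in A1, 10.85 and 10.92 in A2, 8.15 and 7.95 in DAC8 and 8.02 and 8.12 in REF1, higher by 6.57-fold or more (adjusted p against REF1 7.44e-10). Slc2a3, the transporter of neurons, was higher by 4.76-fold or more and Pdk1, which holds pyruvate back from mitochondria, by 4.31-fold or more. Gapdh had no call, at 12.91 in A1, 12.87 in A2, 12.80 in DAC8 and 12.88 in REF1.

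Genes that set or remove DNA methylation and shape chromatin gave 7 higher and 1 lower of 17 tested, with a median pooled difference of 0.73. Chd7, a remodeller of neural progenitors and neural crest, was higher by at least 25.4-fold, and Tet1, a methylcytosine dioxygenase, by at least 4.86-fold. Dnmt1 and Uhrf1, which copy methylation at replication, were higher by 2.10-fold or more and 3.40-fold or more. The lower member was Smarca1, at 4.78 in A1, 5.43 in A2, 6.92 in DAC8 and 7.03 in REF1.

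Imprinted genes, expressed from one parental copy, gave 2 higher and 8 lower of 15 tested, with a median pooled difference of -2.64. The noncoding RNA gene H19 stood at 5.65 and 5.74 in A1, 5.86 and 5.96 in A2, 9.97 and 10.03 in DAC8 and 12.37 and 12.22 in REF1. All iPS arrays lay under those of DAC8, which in turn lay under those of REF1, and the iPS lines were lower by 17.0-fold or more (adjusted p against REF1 6.57e-12). Igf2, the growth factor gene next to it, stood at 5.38 and 5.10 in A1, 5.49 and 5.05 in A2, 11.16 and 11.14 in DAC8 and 12.65 and 12.56 in REF1. It was lower by 58.8-fold or more on the probe set used. The other 3 of its 4 probe sets had the opposite sign but lay close to no difference on average. With the mean of all 4 the pooled difference went from -6.62 to -1.61. Plagl1, a zinc finger factor, was at least 28.1-fold lower and Grb10, a growth factor receptor adaptor, 22.7-fold or more. Cdkn1c, a CDK inhibitor, was in the other direction, at 10.03 and 10.27 in A1, 10.53 and 10.29 in A2, 6.06 and 6.21 in DAC8 and 7.40 and 7.29 in REF1, and so was Ndn, which encodes necdin of postmitotic neurons, by 2.46-fold or more.

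**Figure D5:**
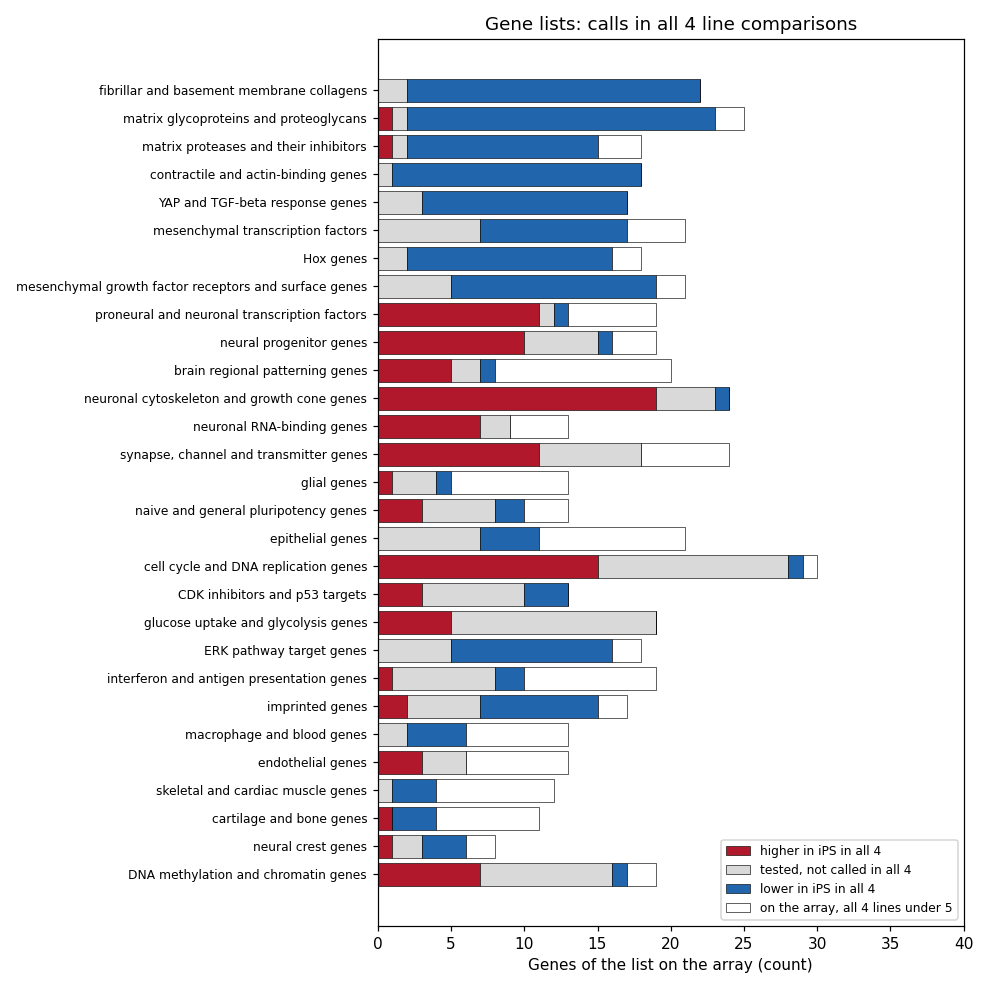
Bars count the members on the array of each of 29 gene lists, split into genes higher in the iPS lines in all 4 comparisons (red), tested but not called in all 4 (grey), lower in all 4 (blue) and under 5 in all 4 lines (white). Matrix, contractile and Hox lists are mostly blue, as 20 of 22 for collagens. The proneural, neuronal cytoskeleton and neuronal RNA-binding lists are mostly red, as 19 of 24 for the neuronal cytoskeleton. The synapse, channel and transmitter list is red for 11 of 24. Over all genes tested, 13.6% were higher and 14.6% lower.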

How the data were processed

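RNA of 12 rat arrays (Affymetrix, single colour, 31099 probe sets) was available as log2 signals, and the deposited log2 values were used unchanged. The submitters' processing notes name Partek 6.2 and RMA, without their roles. RMA commonly summarises the probes of a set after background correction and normalization between arrays, which compresses differences of dim genes. The sources used here do not say which arrays shared a normalization. Array medians ran from 5.28 to 5.41.

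Of the probe sets, 20832 had 1 gene symbol, 436 had several and 9831 were not named. Of those with 1 symbol, 20764 matched GRCr8 by gene ID and 0 symbols changed. For 14218 genes, of which 4526 had several probe sets, the one highest on average over all 12 arrays was kept. The 3753 genes whose mean stayed under 5 in all 4 lines were dropped, and 10465 were tested.

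The test was limma 3.58.1 (lmFit and eBayes, run in R 4.3.3) on all 6 lines, with Benjamini-Hochberg adjustment within each comparison over all genes tested. The fit was tested on simulated data. The members, the 29 gene lists and the rules were chosen with earlier results of these data known, so no list gets a p of its own. Named are, in each direction, the 10 genes with the largest smallest difference where all 4 line means reached 5, and the 12 with the largest bound otherwise. To these were added up to 5 called members per list and direction, and Postn, Col3a1, Tnc, Elavl4 and Sox2. Uncalled list members are named where a list is described, and genes near the threshold or at like levels in the 4 lines were named after their values were seen. Alternatives were other filters, normalizations, probe set rules, fits, and each array or line left out. Promoter motifs were searched with Python 3.11.15.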

Additional observations from a re-analysis of the deposited data

Results flagged for a closer look

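Among the 423 genes looked at (the tested members of the lists, the genes named by rule and those at like levels in the 4 lines), 33 had a difference between lines of one side by limma's test of that difference, at adjusted p under 0.05 and at least 2-fold. In these the effect of the iPS lines differed between its comparisons. For 26 the difference lay between DAC8 and REF1, given as DAC8 minus REF1 on the log2 scale. As levels chose the place of DAC8, these are descriptions. REF1 stood higher where it was -1.181 for Acan, -1.216 for Cdkn1c, -2.583 for Col5a3, -1.604 for Col6a1, -1.473 for Col6a2, -3.938 for Col6a3, -1.163 for Dlk1, -1.648 for Eln, -1.511 for Fap and -1.120 for Fbln2. It stood higher as well where it was -1.085 for Fos, -2.295 for H19, -1.459 for Igf2, -2.620 for Lum, -1.366 for Mest, -1.636 for Prom1, -1.375 for Tgfbi and -1.683 for Thbs2. DAC8 stood higher where it was 1.057 for F3, 1.926 for Gria2, 1.070 for Klf4, 1.084 for Krt19, 1.039 for Nefl, 2.140 for Scg2, 1.040 for Tek and 1.450 for Tnnc1. Tek was under 5 in line mean in both DAC8 and REF1, so its difference was not shown to lie above background.

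For 8 genes the difference lay between A1 and A2, with Fos among both sets. Given as A1 minus A2, it was 1.296 for Bst2, 1.511 for Ccn1, 1.558 for Ccnd1, 2.056 for Egr1, 1.424 for Egr2, 1.901 for Fos, 1.722 for Hoxa10 and 2.234 for Hoxa9, so A1 stood higher in each. Hoxa9 and Hoxa10 were under 5 in line mean in A1 and in A2, and the same holds for their differences. Of the 33 genes, 23 were called in 1 direction in all 4 comparisons with the iPS lines and 10 were not.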

How the results depend on the processing

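No count of called genes moved by over 1.5 times under the 20 alternatives, and no named gene changed direction. Genes higher and lower in all 4 comparisons numbered 1467 and 1585 with no filter, 1304 and 1429 with a minimum of 6, 1468 and 1505 after quantile normalization, 1430 and 1522 with equal medians, and 1288 and 1410 with the mean of probe sets. They numbered 1428 and 1528 with an intensity trend and with only the 8 arrays. With each array left out in turn they ranged from 1402 to 1436 and from 1506 to 1541. Without DAC8, whose label and profile part, 1668 genes were higher and 1669 lower, since fewer comparisons had to be met, and without REF1 1592 and 1673. Of the 160 named genes, 6 lost the call in some alternative: Bst2 without REF1 replicate 1, Spry1 after quantile normalization and without DAC8 replicate 1, and Ezh2, Ncam1, Sesn1 and Slc1a3 with the mean of probe sets. With the replicate block, 1428 genes were higher and 1528 lower. The mean of probe sets moved the pooled difference of 21 of 158 named genes by over 1.5 times, and those described above carry both values there. Same-numbered arrays had correlations of -0.089 to 0.238 in their deviations, so the numbers were not taken as a pairing. The median pooled difference of all tested genes was 0.13 as deposited and 0.15 after quantile normalization. The 3753 genes under 5 in all 4 lines carry no statement here, and 2 arrays a line limit the precision.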

Other observations

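Interferon and antigen presentation genes, the list not described above, gave 1 higher and 2 lower of 10 tested in the iPS lines, out of 19 on the array. Their median pooled difference was -0.52. These counts lie near the shares over all genes tested, 13.6% higher and 14.6% lower, so the genes below are described singly. Tap1, which carries peptides to MHC class I, was under 5 in both iPS lines and at 6.95 in DAC8 and 6.32 in REF1, at least 2.49-fold lower. With the mean of both probe sets its pooled difference went from -2.47 to -1.27. Ifitm3, a membrane protein that blocks virus entry, stood at 8.37 in A1, 8.80 in A2, 10.78 in DAC8 and 11.46 in REF1. Bst2, which tethers virus particles, was the higher one, at 7.11 in A1 and 5.82 in A2 with DAC8 and REF1 under 5. Without A1 the pooled difference of Bst2 went from 1.83 to 1.19.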
